A study of Mus musculus with 20 samples.

Results

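Aminoacyl-tRNA synthetases were examined in the RNA of mouse breast tumors as 36 genes, found by gene name among the 43346 genes of the count table. The tumors were 20 spontaneous Her2/neu-driven breast tumors of female [BALB/c-neuT x FVB/J] F1 mice, 1 per mouse. Every mouse carried the neuT transgene, an activated rat Her2 oncogene inherited from the BALB/c parent, and no normal tissue or transgene-negative mouse was analysed here. The sample names put 9 tumors in a group called Lo and 11 in a group called Hi, a naming that the labels and the study's text do not explain. By the study's methods the tumors arose in young adult mice, and the labels give no age for single animals. The family was chosen by measured values of these tumors, above all the very high counts of Lars2, and its members were then taken by name, so the level of Lars2 is given as a description without a test.

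Synthetases attach each amino acid to its tRNA, the step that sets the genetic code in translation. Mammalian cells keep a cytosolic set and a mitochondrial set, and both are encoded in the nucleus, mostly by separate genes whose mitochondrial form carries the suffix 2. Gars and Kars, for glycine and lysine, supply both compartments. Some of the cytosolic enzymes sit together in the multisynthetase complex, and several are known targets of Atf4, the transcription factor of the amino acid and stress response. Of the 36 genes, 18 encode cytosolic enzymes, 16 mitochondrial enzymes and 2 enzymes of both compartments.

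Library depth was 38765682 to 65465755 counted reads. The defining markers of luminal epithelium were present in every tumor, with summed values of Krt8, Krt18, Krt19, Epcam and Cdh1 between 2391 and 3768 CPM (counts scaled to a common library size with edgeR's TMM factors). Leukocyte markers, among them Ptprc and Cd3e, summed to between 28.5 and 46.7 CPM and fibroblast markers (Col1a1, Col3a1 and Pdgfra) to between 392 and 1513 CPM. Basal markers summed to at most 70.2 CPM, endothelial markers to at most 65.5 CPM and adipocyte markers to at most 47.2 CPM. The muscle markers Ckm, Acta1 and Myh4 summed to between 0.699 CPM and 616 CPM and thus differed widely between tumors. In such bulk RNA, fewer cells of a type and less RNA per cell cannot be told apart.

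All 36 genes were expressed in all 20 tumors and passed the filter on low counts. Levels between genes are given as RPKM (the same scaling, divided by the gene length listed in the table). Lars2 (ENSMUSG00000035202), the mitochondrial leucyl-tRNA synthetase, stood apart from every other member. It had a lowest value of 3698 RPKM in tumor Hi 9, a median of 5892 RPKM and a highest value of 11630.1 RPKM in tumor Lo 2. Among the other 35 genes the highest median was 53.3 RPKM, for Nars, the asparaginyl enzyme, and the lowest was 0.957 RPKM, for Mars2, the mitochondrial methionyl enzyme. No tumor brought any of them near Lars2.

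Cytosolic genes had a median level of 19.5 RPKM over the 18 genes. Nars led them, followed by Sars (median 40.3 RPKM), Hars (32.3 RPKM) and Farsb (29.6 RPKM), which charge serine, histidine and, with Farsa, phenylalanine. The lowest were Eprs (7.50 RPKM), Aars (7.03 RPKM), Cars (6.97 RPKM) and Yars (4.94 RPKM). Kars and Gars, whose products serve both compartments, had medians of 43.7 and 29.7 RPKM and thus lay among the higher cytosolic genes. Between the neighbors Vars, Tars, Qars and Rars, with medians from 21.9 to 23.2 RPKM, the order cannot be read, since the ranges of all of them over tumors overlapped between 19.3 RPKM (lowest Tars) and 25.1 RPKM (highest Qars).

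Without Lars2, the 15 mitochondrial genes had a median level of 4.89 RPKM. Cars2 (median 10.8 RPKM), Iars2 (9.47 RPKM), Fars2 (9.06 RPKM), Hars2 (8.42 RPKM) and Tars2 (7.49 RPKM) were the highest, for cysteine, isoleucine, phenylalanine, histidine and threonine. Pars2 (1.04 RPKM) and Mars2 were the lowest, and Pars2 rested on as few as 100 counts in a tumor. The highest of these genes lay below the median cytosolic gene.

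The listed lengths do not relate to transcript length in the same way for every gene. Mars2 is listed with 11294 bases, its whole span and also the length of its longest coding transcript in GENCODE M21. Its median was thus 0.957 RPKM with either length. Eprs is listed with 18102 bases, while its longest coding transcript has 4906 bases. With such transcript lengths, chosen after seeing the data, Eprs had a median of 27.7 RPKM and Qars 57.9 RPKM, the highest value after Lars2. The median over cytosolic genes was then 25.1 RPKM and that over mitochondrial genes without Lars2 5.84 RPKM.

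**Figure D1:**
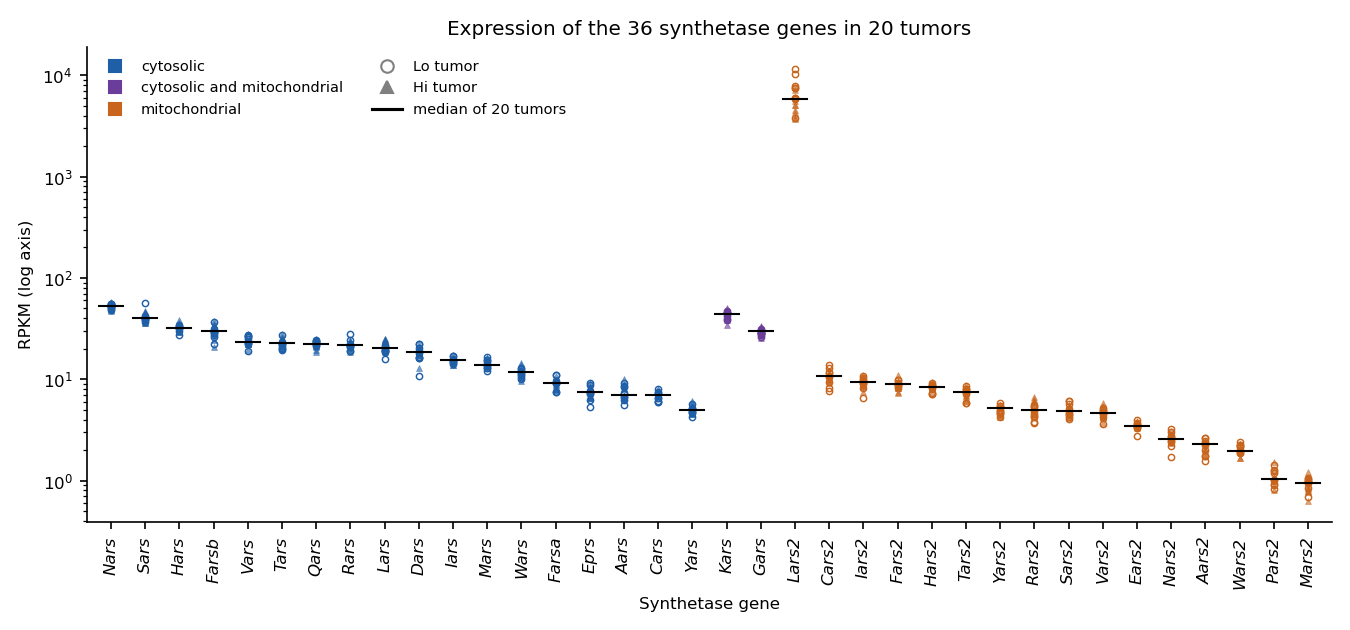
RPKM on a log axis of each of the 36 genes in each tumor, with open circles for the 9 Lo tumors, filled triangles for the 11 Hi tumors and a black line at the median of 20 tumors. Lars2 lies between 3698 and 11630.1 RPKM, and all medians of the other genes lie between 0.957 and 53.3 RPKM.

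The response of synthetase genes to Atf4 is known to run through promoter elements of the form TGATGNAA, of which TGATGCAAT is the full C/EBP-ATF element. Both were searched on both strands in RefSeq promoters of GRCm38.p6, from 250 bases before to 50 bases after each gene's start, and every TGATGCAAT also holds a TGATGNAA. Of the members, 27 were found among these promoters. Hars2, Rars, Lars, Wars, Pars2, Hars, Nars, Vars and Cars were not, so neither element was searched for in these genes. TGATGNAA was present in 5 of the 27 (Aars, Gars, Iars, Tars and Yars) and in 3.97% of all 32851 promoters. TGATGCAAT was present in Aars and Iars and in 0.192% of all promoters. The 5 sequences are shown from 125 bases before to 25 bases after the start, 5′ to 3′ on the strand of the gene, to place the element in each, with the matches in capitals. They lie at chr8:111033717-111033866 (Aars, plus strand), chr6:55037876-55038025 (Gars, plus strand), chr13:49682005-49682154 (Iars, plus strand), chr15:11399634-11399783 (Tars, minus strand) and chr4:129189778-129189927 (Yars, plus strand).
Aars: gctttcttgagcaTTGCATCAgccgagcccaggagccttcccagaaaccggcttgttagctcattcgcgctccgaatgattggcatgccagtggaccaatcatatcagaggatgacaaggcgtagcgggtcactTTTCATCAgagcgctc
Gars: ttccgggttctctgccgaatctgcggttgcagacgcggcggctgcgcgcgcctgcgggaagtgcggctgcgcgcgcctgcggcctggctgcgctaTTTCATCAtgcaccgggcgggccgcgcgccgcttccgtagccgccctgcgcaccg
Iars: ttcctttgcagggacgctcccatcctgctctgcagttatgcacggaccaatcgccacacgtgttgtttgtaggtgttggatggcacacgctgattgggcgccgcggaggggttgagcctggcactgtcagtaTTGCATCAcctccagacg
Tars: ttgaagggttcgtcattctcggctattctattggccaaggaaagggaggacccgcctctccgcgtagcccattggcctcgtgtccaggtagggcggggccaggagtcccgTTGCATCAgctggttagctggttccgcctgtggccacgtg
Yars: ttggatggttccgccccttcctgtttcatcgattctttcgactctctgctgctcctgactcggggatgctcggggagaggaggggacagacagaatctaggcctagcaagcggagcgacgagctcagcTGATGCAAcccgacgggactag
In Aars 1 match lay 112 to 105 bases before the start and 1 lay 10 to 17 bases after it, both on the opposite strand. The matches of Gars (30 to 23 bases before) and Tars (15 to 8 bases before) lay just before the start, those of Iars (8 to 15 bases) and Yars (4 to 11 bases) just after it. The match of Yars was the only one of the 6 on the strand of the gene. A match describes the letters of the window and shows no binding.

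For 13 amino acids the set holds 1 cytosolic and 1 mitochondrial gene that serve no other amino acid, and these pairs were compared. Phenylalanine, with the cytosolic genes Farsa and Farsb, and glutamate and proline, which share the cytosolic Eprs, were not paired. Median levels for phenylalanine were 9.10 (Farsa), 29.6 (Farsb) and 9.06 RPKM (Fars2). Farsa was below Fars2 in some tumors, as in Lo 6 (7.53 against 9.23 RPKM), but had a median of 22.6 RPKM with transcript lengths. For glutamate and proline the medians were 7.50 (Eprs), 3.49 (Ears2) and 1.04 RPKM (Pars2). In 10 of the 12 pairs other than leucine, the cytosolic gene was higher in all 20 tumors. The median ratio of cytosolic to mitochondrial RPKM was 20.8 for Nars over Nars2, 15.0 for Mars over Mars2, 8.15 for Sars over Sars2 and 5.91 for Wars over Wars2. It was smallest among these 10 pairs for Iars over Iars2, at 1.61 with a range of 1.33 to 2.32.

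The exceptions among these pairs were cysteine and tyrosine. Cars was below Cars2 in every tumor (ratio 0.643, range 0.556 to 0.881), and Yars was above Yars2 in 8 of the 20 tumors (ratio 0.963). Both depended on the length used. With transcript lengths Cars was above Cars2 in 7 tumors and Yars above Yars2 in all 20, while Iars was above Iars2 in 19 (ratio 1.18). The ratio of Tars over Tars2 then went from 3.17 to 1.52 and that of Aars over Aars2 from 3.41 to 5.50, both above 1 in all 20 tumors. Cars2 also shares 217 transcript bases with its neighbor Naxd (listed as Carkd), which had a median of 3153 counts against 1031 for Cars2, and the part of shared reads in its level was not tested. For leucine the order was turned in every tumor with either length, and Lars2 was between 160 and 537 times as high as Lars per base, with a median of 283.

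Summed over genes, cytosolic synthetases reached 320.1 RPKM in the lowest tumor (Lo 9), a median of 363 RPKM and 403 RPKM in the highest (Hi 1). The 15 mitochondrial genes without Lars2 summed to between 68.3 RPKM (Lo 4) and 83.9 RPKM (Lo 1), with a median of 76.8 RPKM. The mitochondrial to cytosolic ratio without Lars2 was 0.211 ± 0.0161 (SD, n = 20) and varied between 0.183 in Lo 11 and 0.235 in Lo 1. Both sums thus stayed within a narrow range, the highest tumor having 1.26 times the cytosolic sum and 1.23 times the mitochondrial sum of the lowest.

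With Lars2 included, the ratio was 17.2 ± 5.76 (SD, n = 20), from 10.1 in Hi 7 to 29.4 in Lo 2. Lars2 alone made up between 97.8% and 99.3% of the mitochondrial sum in a tumor. The ratio with Lars2 was 20.5 ± 6.06 in Lo tumors (SD, n = 9) and 14.4 ± 3.92 in Hi tumors (SD, n = 11), and the groups overlapped. Without Lars2 it was 0.212 ± 0.0186 in Lo and 0.211 ± 0.0147 in Hi. The enzymes of both compartments are in neither sum.

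**Figure D2:**
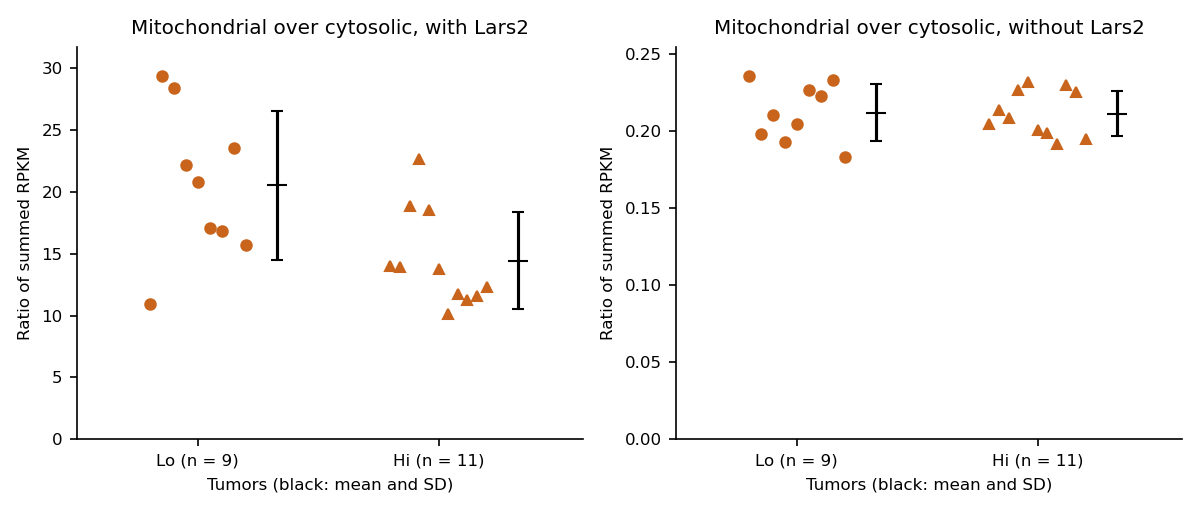
Ratio of summed RPKM of mitochondrial over cytosolic synthetase genes in each Lo (n = 9) and Hi (n = 11) tumor, with Lars2 on the left and without it on the right, and the mean and SD in black. With Lars2 the ratio spans 10.1 to 29.4, and without it 0.183 to 0.235.

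The Lars2 gene lies at 123366940 to 123462664 of Chr9 (mm10). It took between 1.53% of the counts of a tumor (Hi 7, 95% Wilson interval 1.53% to 1.54%) and 4.11% (Lo 2, 4.10% to 4.11%), which are intervals of counting error only. In counts this was 629869 to 2130871 reads, against 76273 to 146571 reads for the other 35 genes together, which made up 0.164% to 0.228%. Lars2 ranked 5 among all genes by summed counts, and 3 without Yam1 and AY036118, a pair of overlapping genes on Chr17 that lie over a ribosomal RNA gene. Relative to the median member of the same tumor it was 677 ± 248 times as high (SD, n = 20), or 454 times with transcript lengths, chosen after seeing the data. The counts give 1 number per gene, so the part of the gene from which these reads came was not analysed here.

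The longest coding transcript of Lars2 (3894 bases, 21 exons) was searched against all other GENCODE M21 transcripts. It shared no stretch with transcripts of Yam1 or AY036118. Ribosomal RNA sequence outside the annotated transcripts was not searched, so a match of Lars2 to it was not tested. The Lars2 3′ UTR, within exon 21, held stretches also found on the same strand in 2 noncoding genes. AA474408 matched over 97 bases at 94.8% identity (123462003 to 123462099 of Chr9) and over 50 bases at 96.0%. Gm15564 matched over 72 bases at 98.6% (123462048 to 123462119). Reads of these genes were counted far less often than those of Lars2, with medians of 136 CPM for AA474408 and 123 CPM for Gm15564, against 22865 CPM for Lars2. How reads over the shared stretches were assigned was not tested. The 37 genes of the mitochondrial genome, ribosomal RNA genes among them, had 0 counts in all 20 tumors. Where any reads of these genes were placed was not tested either.

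Across tumors, Lars2 went with the ribosomal RNA locus. Yam1 and AY036118 together took between 6.29% (Lo 1) and 27.7% (Lo 6) of a tumor's counts, and Lars2 was 14795 CPM in Lo 1, 28759 CPM in Lo 6 and 45137 CPM in Lo 2, where the locus took 21.6%. Over the 20 tumors Pearson's r of log2 CPM was 0.728 (permutation p = 0.00029) and Spearman's rho 0.785 (permutation p = 5e-05), or p = 0.00116 and 0.0002 after Benjamini-Hochberg adjustment over the 4 relations of Lars2 computed. Without Lo 1 and Lo 6, the tumors farthest from the median of the locus, r was 0.734. Within groups r was 0.777 in the 9 Lo tumors (exact permutation p = 0.0151) and 0.467 in the 11 Hi tumors (permutation p = 0.151), so the relation passed the threshold only within Lo, and whether the groups differ in it was not tested. With totals that leave out the locus and Lars2, used without TMM factors, r was 0.729.

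The same relation in a fit over all genes had a slope of 0.35 on the log2 scale per SD of the locus for Lars2 (SE 0.0749), with a Benjamini-Hochberg adjusted p = 0.0829 from the quasi-likelihood test of edgeR and 0.00154 from DESeq2. By edgeR, 0 of the 36 members were called in this fit, where 0.0782% of all 20463 genes were called, and by DESeq2 1 member was, Lars2. At an unadjusted p under 0.05 there were 7 members, and 10.3% of all genes. Of the 7, Lars2 and Wars2 (slope 0.07) had positive slopes and Cars (-0.09), Aars (-0.14), Sars2 (-0.11), Aars2 (-0.12) and Wars (-0.09) negative ones. Members had a median slope of -0.03, against -0.0014 over all genes, and 11 of the 36 had a positive slope.

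The noncoding genes that share stretches with the Lars2 3′ UTR were related to it to different degrees. AA474408 had r = 0.654 over the 20 tumors (permutation p = 0.00184, adjusted 0.00368; rho = 0.725, p = 0.00052). It was 0.492 without Hi 7 and Lo 2, 0.539 within Lo (exact permutation p = 0.133) and 0.768 within Hi (permutation p = 0.00229). Gm15564 had r = 0.524 (permutation p = 0.0167, adjusted 0.0222) but rho = 0.296 (permutation p = 0.205, adjusted 0.273), and r was 0.447 without Lo 3 and Lo 8, 0.520 within Lo and -0.0038 within Hi.

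The genes whose log2 CPM was most like that of Lars2 over the 20 tumors were Grn (r = 0.851), Hist1h1b (0.830), Rmrp (0.795), Utrn (0.795) and Hist4h4 (0.782), chosen as the highest r among 18991 genes. No synthetase was among them. Grn encodes progranulin, Hist1h1b and Hist4h4 encode histones, Rmrp is the RNA of an RNase and Utrn encodes utrophin.

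**Figure D3:**
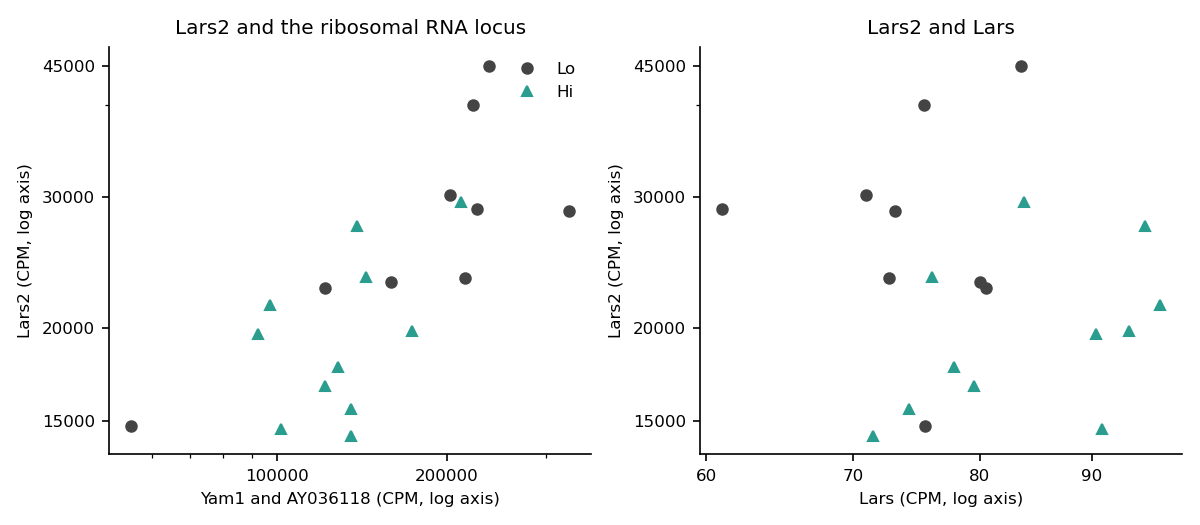
Lars2 in each tumor against Yam1 and AY036118 together (left) and against Lars (right), all as CPM on log axes, with circles for the 9 Lo and triangles for the 11 Hi tumors. Lars2 rises with the ribosomal RNA locus (r = 0.728) and shows no such relation with Lars (r = -0.104).

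Lars, the cytosolic leucyl enzyme and a part of the multisynthetase complex, did not go with Lars2. Its lowest value was 15.8 RPKM (Lo 9), its median 20.4 RPKM and its highest value 25.1 RPKM (Hi 1). Over the 20 tumors r with Lars2 was -0.104 (permutation p = 0.663, adjusted 0.663) and rho -0.122 (permutation p = 0.608). It was 0.001 without Lo 9 and Hi 1, 0.0578 within Lo (exact permutation p = 0.880) and 0.414 within Hi (permutation p = 0.204). Over the 35 other members r with Lars2 ran from -0.526 (Cars) to 0.582 (Wars2), with a median of -0.0902 and 20 negative values, a description over genes that share libraries and scaling.

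Between tumors, most synthetase genes varied little. The SD of log2 RPKM was 0.0813 for Nars, the steadiest, and its highest tumor had 1.20 times the level of its lowest. The median SD was 0.147 over cytosolic genes and 0.175 over mitochondrial genes without Lars2, where that of all 18992 genes after the filter was 0.253. The comparison with all genes was not matched on count level, which also bears on such an SD. Dars (SD 0.259), Pars2 (0.245) and Rars2 (0.243) varied most among the 35 genes, by 2.06, 1.91 and 1.80 times between the lowest and the highest tumor. For Lars2 the SD was 0.471, above that of 77.2% of genes, and its highest tumor had 3.15 times the level of its lowest.

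Pairs of cytosolic genes had a median r of 0.258 over the 20 tumors (153 pairs, range -0.455 to 0.860), and the 8 enzymes of the multisynthetase complex one of 0.310 (28 pairs, 4 of them negative). Pairs of mitochondrial genes without Lars2 had a median of 0.0544 (105 pairs), and pairs across the compartments one of 0.0191 (270 pairs). These are descriptions over pairs that share genes, libraries and scaling, and the difference between the sets was not tested.

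Between the Lo and Hi tumors no member was called. By the quasi-likelihood test of edgeR, with Benjamini-Hochberg adjustment over 18992 genes, 0 of the 36 members and 0% of all genes passed an adjusted p of 0.05, and DESeq2 called 0 members. At an unadjusted p under 0.05 there were 3 members by either tool, and 5.45% of all genes by edgeR. These were Lars2, Lars and Rars2. Lars2 had a lowest value of 3812 RPKM, a median of 7410.3 RPKM and a highest value of 11630.1 RPKM in Lo, and 3698, 5065 and 7629 RPKM in Hi, with a log2 difference of Hi minus Lo of -0.51 (SE 0.179, adjusted p = 0.723 from edgeR). The groups overlapped over nearly the whole range of Hi.

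Lars had a lowest, median and highest value of 15.8, 19.6 and 21.7 RPKM in Lo and of 18.5, 21.7 and 25.1 RPKM in Hi (log2 difference 0.18, SE 0.0665, adjusted p = 0.764 from edgeR). Rars2, the mitochondrial arginyl enzyme, had 3.73, 4.54 and 5.58 RPKM in Lo and 4.38, 5.71 and 6.73 RPKM in Hi (log2 difference 0.23, SE 0.0972, adjusted p = 0.847 from edgeR). The differences of the leucyl enzymes were thus opposite in sign, and neither passed the correction over all genes. The median difference was 0.03 over cytosolic genes and -0.006 over mitochondrial genes without Lars2, against 0.0043 over all genes. The ribosomal RNA locus differed between the groups as well, with a mean of 0.396 SD in Lo and -0.324 SD in Hi, and its part in the Lars2 difference was not tested.

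To relate members to the Atf4 program in these tumors, a score was made of 19 known Atf4 targets that are not synthetases, among them Asns, Chac1, Trib3 and Psat1. Tumor Hi 1 had the highest score (2.21 SD) and Hi 4 the lowest (-1.53 SD). In a fit of all genes on this score with edgeR's quasi-likelihood test, 3 of the 36 members were called, where 3.004% of all 20138 genes were. Sars and Fars2 rose with the score, as 2.10% of all genes did, and Rars2 fell, as 0.904% did. At an unadjusted p under 0.05 there were 11 members, and 20.2% of all genes.

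Sars, the cytosolic seryl enzyme, had a lowest value of 131 CPM (Hi 5), a median of 147 CPM and a highest value of 205 CPM (Lo 11). It had a slope of 0.11 on the log2 scale per SD (SE 0.0290, adjusted p = 0.0460 from edgeR). The tumors with a score over 1 SD, Hi 1, Lo 11 and Lo 8, had 165, 205 and 144 CPM, and those under -1 SD, Hi 4, Lo 1 and Lo 9, had 144, 144 and 133 CPM. With totals that leave out the ribosomal RNA locus and Lars2, used without TMM factors, the slope was 0.05 (adjusted p = 0.340 from edgeR).

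Fars2, the mitochondrial phenylalanyl enzyme, had 15.7 CPM in its lowest tumor (Hi 3), 15.8 CPM in Hi 4 with the lowest score, and 23.6 CPM in its highest tumor (Hi 1), the tumor with the highest score (slope 0.10, SE 0.0270, adjusted p = 0.0475 from edgeR). Rars2 had 10.3 CPM in its lowest tumor (Lo 8), a median of 13.7 CPM and 18.7 CPM in its highest (Hi 5). Its slope was -0.17 (SE 0.0422, adjusted p = 0.0317 from edgeR), and it was called under every alternative run. Sars and Fars2 were each called with DESeq2 and lost under the other 5 alternatives, with an adjusted p between 0.0529 and 0.340 from edgeR.

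Most cytosolic genes had a positive slope on the Atf4 score, 17 of 18 with a median of 0.05, and the exception was Yars (-0.02). Mitochondrial genes without Lars2 had 7 positive slopes of 15 and a median of -0.0039, and all genes had 50.1% positive slopes and a median of 0.0002. Under the alternatives between 14 and 17 cytosolic genes and between 4 and 8 mitochondrial genes had a positive slope. Kars had a slope of 0.09 (adjusted p = 0.0517 from edgeR). Of the 5 genes in which a TGATGNAA element was found, none was called. Aars had a slope of 0.10 (SE 0.0442), Gars 0.04, Iars 0.01, Tars 0.01 and Yars -0.02. No such element was found for Sars, Fars2 and Rars2 in the windows searched.

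Among 16 further genes of tRNA charging and its regulation, Aimp2, a scaffold protein of the multisynthetase complex (slope 0.12, SE 0.0277, adjusted p = 0.0255 from edgeR), and Atf4 itself (slope 0.14, SE 0.0350, adjusted p = 0.0367 from edgeR) rose with the score, and the other 14 were not called. The score moved with other measures of the tumors. Its r was -0.590 with leukocyte markers, -0.541 with the dosage of Chr4, on which Rars2 and Yars lie, and 0.641 with the score of mitochondrial ribosomal proteins. The part of these in the slopes was not tested. Mars overlaps Ddit3, one of the score's genes. Without Ddit3, a choice made after seeing the data, edgeR called 2 members (Kars and Rars2) and 562 of all 20138 genes.

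Mitochondrial ribosomal proteins work in the same translation system as the mitochondrial synthetases, and a score was made of 79 Mrpl and Mrps genes. With edgeR's quasi-likelihood test, 4 of the 36 members were called in the fit on this score, where 8.68% of all 20138 genes were, and all 4 rose with it, as 5.22% of all genes did. They were Kars and Gars, of both compartments, and the cytosolic Hars and Rars. None of the 16 mitochondrial genes was called by edgeR, and DESeq2 called Fars2. At an unadjusted p under 0.05 there were 11 members, 2 of them mitochondrial, and 24.1% of all genes.

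Kars had a lowest value of 76.4 CPM in Hi 4, the tumor with the lowest score (-2.09 SD), a median of 98.3 CPM and a highest value of 112 CPM in Hi 7, the tumor with the highest score (1.63 SD). Its slope was 0.12 per SD (SE 0.0183, adjusted p = 0.00029 from edgeR), and it remained called under all alternatives. Hars (slope 0.09, SE 0.0191, adjusted p = 0.0046) was lowest in Lo 9 (54.3 CPM) and highest in Hi 7 (76.6 CPM), the values of adjusted p here being from edgeR. Gars (0.08, SE 0.0192, adjusted p = 0.0101 from edgeR) was lowest in Hi 4 (60.6 CPM) and Rars (0.10, SE 0.0258, adjusted p = 0.0191 from edgeR) was lowest in Hi 5 (60.2 CPM). Without Hi 4 and Lo 9, the tumors farthest from the median score, edgeR called 1 member, Kars, and 415 of 19650 genes. With totals that leave out the ribosomal RNA locus and Lars2, used without TMM factors, Kars was again the only member called, with 324 of 20109 genes.

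Of the cytosolic genes, 17 of 18 had a positive slope on this score with a median of 0.06, and of the mitochondrial genes without Lars2 5 of 15 did, with a median of -0.01, against 50.2% positive slopes and a median of 0.0005 over all genes. Under the alternatives 17 or 18 cytosolic and 4 to 8 mitochondrial genes had a positive slope. All 8 enzymes of the multisynthetase complex had a positive slope, from 0.02 for Iars to 0.12 for Kars. The scaffold genes Aimp1 (slope 0.14, SE 0.0244, adjusted p = 0.00094 from edgeR) and Aimp2 (0.10, SE 0.0306, adjusted p = 0.0350 from edgeR) rose as well. Lars2 had a slope of -0.05 that was not called, and Mars2 one of -0.09. The score had an r of 0.531 with the luminal markers, whose part in the slopes was not tested.

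**Figure D4:**
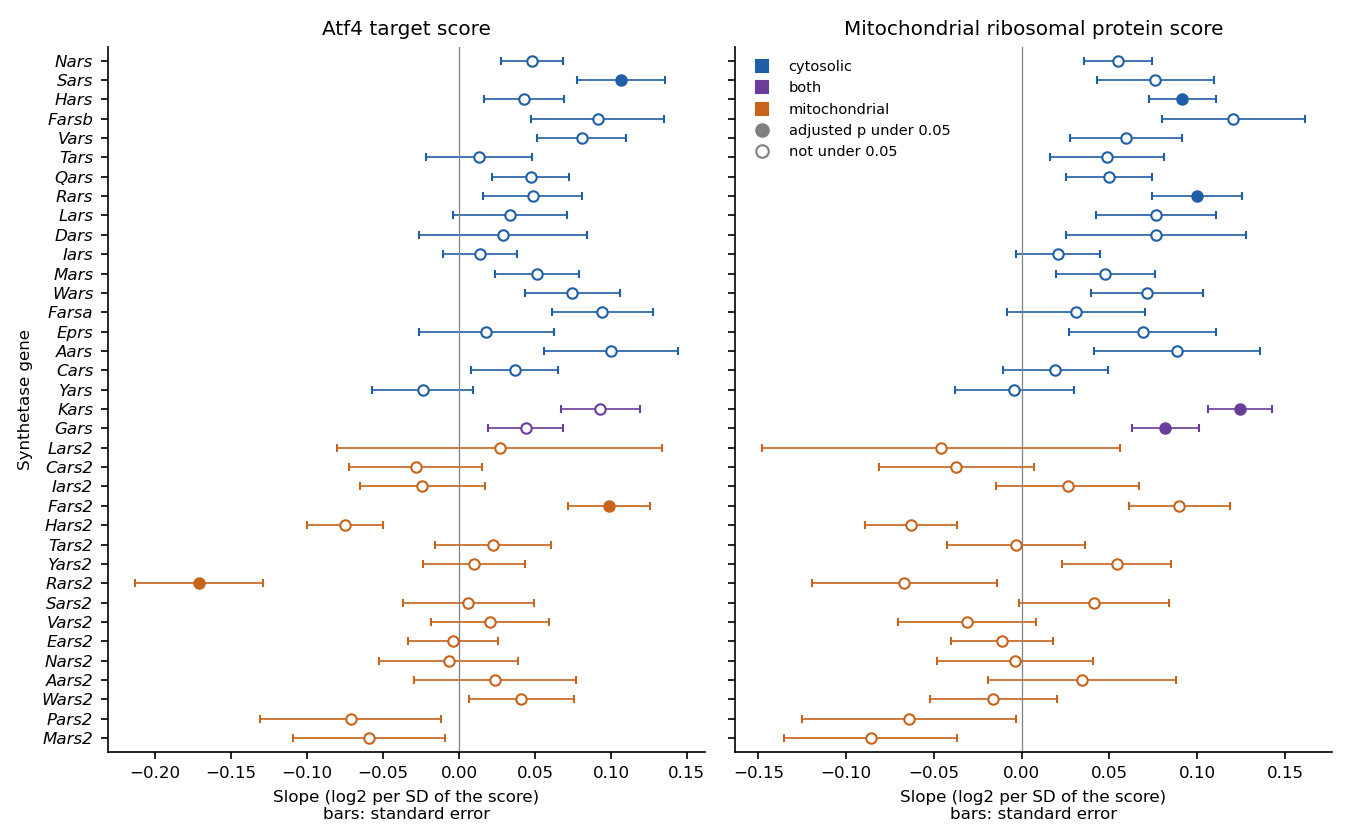
Slope of each member on the Atf4 target score (left) and on the mitochondrial ribosomal protein score (right), in log2 units per SD of the score over 20 tumors, with bars for the standard error and filled points for members called by edgeR. Nearly all cytosolic genes lie to the right of 0 in both panels, and mitochondrial genes lie on both sides.

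Wars, the cytosolic tryptophanyl enzyme, is a known target of interferon gamma. On a score of 13 interferon-induced genes, 0 of the 36 members were called by edgeR's quasi-likelihood test, where 1.17% of all 20138 genes were, 0 had an unadjusted p under 0.05, where 8.74% of all genes did, and DESeq2 called 0. Wars lay between 33 CPM (Hi 6) and 49.7 CPM (Hi 1), and Hi 1 was the tumor with the lowest interferon score (-1.81 SD). Its slope was 0.007 (SE 0.0351, adjusted p = 0.989 from edgeR).

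Members were also related to the median expression of the genes of Chr1, on which 5 of them lie, and of Chr4, on which 3 lie. The dosage of a chromosome in a tumor, a measure of RNA and not of DNA content, was taken as the median log2 CPM of its genes relative to the median tumor, minus the same over all autosomes, with the synthetase genes left out. Chr1 was lowest in Lo 8 (-0.30), Hi 7 (-0.23) and Hi 5 (-0.13), and the other tumors lay higher. With edgeR's quasi-likelihood test, 3 of the 36 members were called on the Chr1 dosage, where 1.18% of all 20993 genes were. All 3 rose with the dosage and lie on Chr1. Of all genes 0.738% rose with it, and of the other 1594 genes of Chr1 8.34% did.

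Dars, the cytosolic aspartyl enzyme, had 46.6 CPM in Lo 8, 74.9 CPM in Hi 7 and 55.8 CPM in Hi 5, against 70.2 to 96.2 CPM with a median of 82.1 CPM in the other tumors. Its slope was 0.20 per SD (SE 0.0385, adjusted p = 0.0109 from edgeR). Iars2, the mitochondrial isoleucyl enzyme, had 58.3, 73.7 and 67.2 CPM in these tumors and 72.1 to 97.8 CPM in the others (slope 0.15, SE 0.0279, adjusted p = 0.0062 from edgeR). Eprs, the enzyme for glutamate and proline, had 97.1, 121 and 118 CPM against 113 to 167 CPM (slope 0.15, SE 0.0344, adjusted p = 0.0371 from edgeR). Lo 8 thus had the lowest value of all tumors for each of the 3 genes, and Hi 7 lay within the range of the others.

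The other Chr1 members were not called. Farsb had a slope of 0.09 (SE 0.0445, adjusted p = 0.442 from edgeR) and Mars2 one of 0.05 (SE 0.0503, adjusted p = 0.738 from edgeR), and Mars2 had 11.8 CPM in Lo 8, 7.18 CPM in Hi 7 and 8.74 CPM in Hi 5, against 7.83 to 13.6 CPM in the others, so that it was lowest in Hi 7 and not in Lo 8. Iars2 overlaps Rab3gap2 over bases of their transcripts, and their reads may not be separable. Without Lo 8 and Hi 7 edgeR called none of the 36 members, where 10 of all 20886 genes were called. At an unadjusted p under 0.05 there were 5 members, and 1886 of all genes. The slopes were 0.34 for Dars, 0.24 for Iars2 and 0.22 for Eprs per SD, with an adjusted p between 0.0842 and 0.449 from edgeR.

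The Chr4 dosage ran from -0.21 in Lo 2 to 0.38 in Hi 5. With edgeR's quasi-likelihood test, 2 of the 36 members were called, Yars and Rars2, where 5.02% of all 20463 genes were. Both rose with the dosage, as did 3.76% of all genes and 30.7% of the other 1257 genes of Chr4. Hi 5 was the highest of all tumors for the 3 Chr4 members. In it Yars, the cytosolic tyrosyl enzyme, had 36.6 CPM, against at most 28 CPM in Lo 2, Lo 3 and Hi 1, the tumors of lowest dosage (slope 0.10, SE 0.0249, adjusted p = 0.0124 from edgeR). Rars2 had 18.7 CPM in Hi 5 and 11.9 to 12.6 CPM in those tumors (slope 0.16, SE 0.0424, adjusted p = 0.0251 from edgeR). Pars2, the mitochondrial prolyl enzyme, had 4.74 CPM in Hi 5 and 2.84 to 3.92 CPM in those 3 tumors (slope 0.15, SE 0.0479, adjusted p = 0.0697 from edgeR and 0.0387 from DESeq2).

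Without Hi 5 and Lo 2, edgeR called 0 members, where 430 of all 20005 genes were called. At an unadjusted p under 0.05 there were 2 members, and 2680 of all genes. The slopes were 0.11 for Yars and 0.18 for Rars2, with adjusted p of 0.135 and 0.158 from edgeR. The Chr4 dosage had an r of 0.811 with leukocyte markers and 0.469 with fibroblast markers, whose part in these slopes was not tested. Leukocyte markers summed to between 28.5 and 46.7 CPM over the tumors. Members of other chromosomes had no called slope on either dosage.

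**Figure D5:**
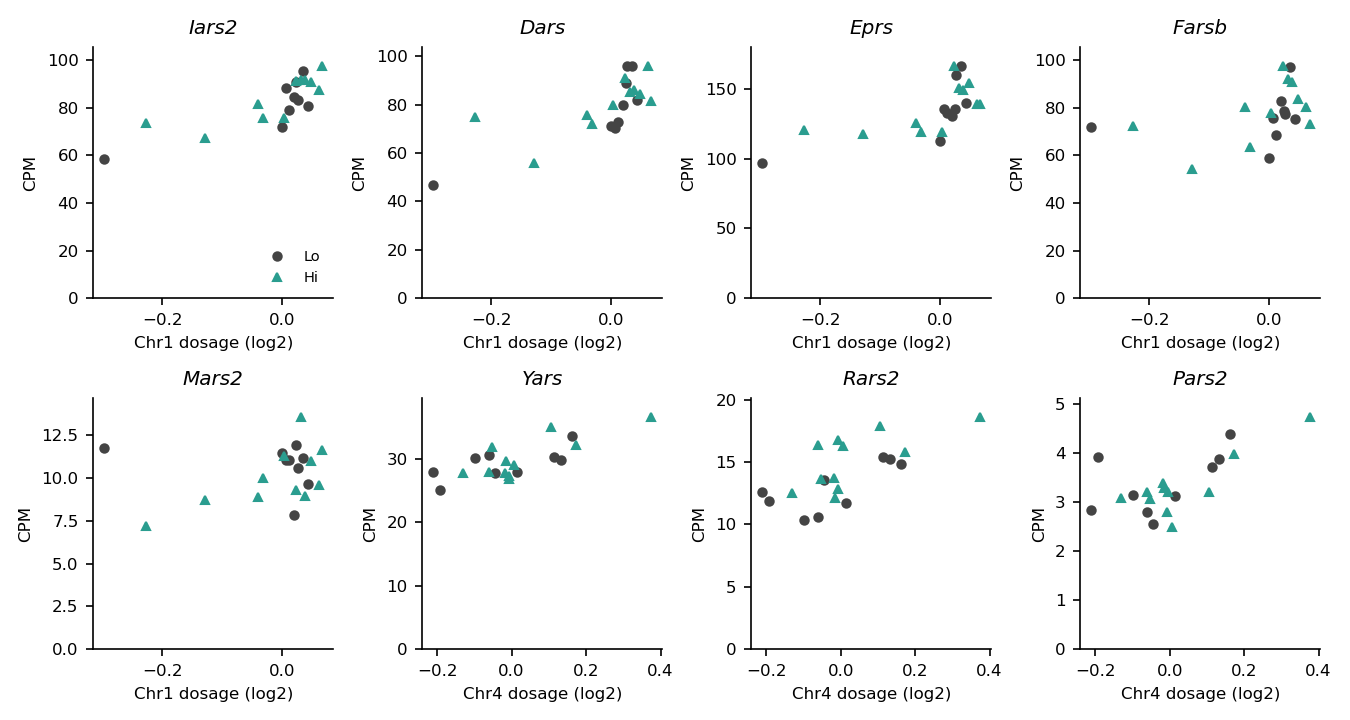
CPM of the 5 Chr1 members against the Chr1 dosage and of the 3 Chr4 members against the Chr4 dosage (log2, relative to the median tumor) in each tumor, with circles for the 9 Lo and triangles for the 11 Hi tumors. Lo 8, with a Chr1 dosage of -0.30, has the lowest Iars2, Dars and Eprs, and Hi 5, with a Chr4 dosage of 0.38, the highest Yars, Rars2 and Pars2.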

How the data were processed

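RNA of 20 tumors was sequenced from libraries of the TruSeq mRNA kit, and the counts deposited by the authors are raw numbers of reads for each gene, with a column for every tumor and no pooling. Reads were trimmed to 100 bases and aligned to mm10, and the submitters' processing notes list TopHat2 2.0.12 and featureCounts 1.4.4. The strand setting and annotation release are not given in the sources used here, so members with an overlapping or near-identical gene are uncertain (10 members shared a stretch of at least 100 bases at 95% identity, Aars with Exosc6, Cars2 with Naxd, Fars2 with Lyrm4, Farsb with Sgpp2, Hars with Hars2, Iars with Gm4849, Iars2 with Rab3gap2, and Nars2 and Vars2 with antisense genes, and Mars, Qars, Yars and Ears2 overlap Ddit3, Qrich1, C77080 and Ubfd1 by position). The deposited table also lists a gene length, used here for RPKM with TMM-scaled totals.

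Total counts were 38765682 to 65465755, and no member was at 0 in any tumor. Fits used edgeR 4.0.16 in R 4.3.3 (TMM factors, genes kept by filterByExpr, quasi-likelihood test with a Benjamini-Hochberg adjusted p of 0.05 over all genes as threshold) on all 20 tumors, 7 fits in all, each with 1 term, Lo or Hi or a covariate per SD. Log2 CPM used a prior count of 2. Scores are mean z-scores of listed genes. Dosage used genes whose mean CPM was 5 or more (718 on Chr1, 737 on Chr4). DESeq2 1.42.0, no filter, totals without the ribosomal RNA locus and Lars2, Lo or Hi as a term, the 2 tumors farthest from the median left out and a replicate block were alternatives. The totals without the locus and Lars2 were used without TMM factors, with scores and dosages computed anew on that scaling. Which of these changes moved a call was not tested. Permutation tests were two-sided, exact for 9 tumors and with 100000 permutations otherwise. Python 3.11.15, numpy 2.4.6, pandas 2.3.3, scipy 1.17.1 and blastn 2.17.0 were used besides. Each tumor came from its own mouse, and the labels do not say whether the numbers shared by Lo and Hi names pair tumors. The main fits used no pairing.

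Members, lists and tests were chosen with earlier results of these data known. Named were all members by their level, Lars2 and Lars in full, members called in each fit, Wars, members on Chr1 and Chr4 and the 5 genes most like Lars2, and others were named after their values were seen. The fits were tested on simulated data. In the Lo against Hi design 166 of 200 genes changed by 1 on the log2 scale were recovered among 18992, with 15 false calls. For the Atf4 slope 170 of 200 changed by 0.5 per SD were recovered, with 8 false calls. The planted changes were larger than those of any member in these fits, at most -0.51 (Lars2) between Lo and Hi and -0.17 (Rars2) on the Atf4 score. Recovery at the sizes seen for members was not tested.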

Additional observations from a re-analysis of the deposited data

Results flagged for a closer look

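Sars was at 56.2 RPKM in tumor Lo 11, while the other 8 Lo tumors lay between 36.5 and 41.7 RPKM. The gap was 0.736 of the range of the Lo tumors, beyond Dixon's 95% limit for a single far value among 9. Of the 36 genes tested this way in the Lo tumors, 1 was picked out, where chance gives about 1 in 20, or 1.8. Lo 11 also had an Atf4 target score of 1.58 SD, and the part of this in its Sars level was not tested.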

How the results depend on the processing

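Of 96 values computed under an alternative for 19 fitted effects of single genes, 72 stayed on their side of the threshold in the same direction, 21 were weaker, 3 were stronger and 0 reversed. The effects of Lars2, Lars, Wars, Farsb, Mars2 and Pars2 were not called in the main fit, so for them staying meant remaining uncalled. Of the called effects, only Rars2 on the Atf4 score and Kars stayed called under every alternative. For the number of members called by edgeR, DESeq2 gave 1 in place of 0 on the ribosomal RNA locus and 5 in place of 3 on the Atf4 score, where no filter, totals without the locus and Lars2, Lo or Hi as a term and leaving out Hi 1 and Hi 4 each gave 1 (Rars2). On the mitochondrial ribosomal protein score, 1 member (Kars) in place of 4 was called with those totals and 1 without Hi 4 and Lo 9. Without Lo 8 and Hi 7 the Chr1 dosage called 0 in place of 3, and without Hi 5 and Lo 2 the Chr4 dosage called 0 in place of 2. The cause was not tested, beyond the fewer tumors in the last. The r of Lars2 with the ribosomal RNA locus was 0.467 within Hi, where 11 tumors remained. The mitochondrial to cytosolic ratio without Lars2 was 0.176 with Gars and Kars counted as cytosolic and 0.250 as a ratio of medians over members. The Lo against Hi number stayed at 0 under each alternative.

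Over all genes, calls on the ribosomal RNA locus went from 16 to 135 with DESeq2, to 6 with Lo or Hi as a term and to 3 without the farthest tumors. On the Atf4 score they went from 605 to 1275, 382 and 351, and to 183 with the other totals. On the mitochondrial ribosomal protein score they went from 1747 (1051 positive, 696 negative) to 324 (296 and 28) with those totals, used without TMM factors. Without the farthest tumors they went to 415. On the interferon score they went from 235 to 156 without the farthest tumors. On Chr1 dosage they went from 247 (155 positive, 92 negative) to 268 (132 and 136) with the other totals, to 538 with DESeq2 and to 10 without Lo 8 and Hi 7, and on Chr4 dosage from 1028 to 430 without Hi 5 and Lo 2. Between Lo and Hi, DESeq2 and no filter each called 1 gene in place of 0.

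With a replicate block on the numbers that Lo and Hi names share, 0 members and 0 genes were called between Lo and Hi (2 members and 864 genes at an unadjusted p under 0.05), as without it. Same-numbered tumors deviated from their group means with r from -0.418 to 0.206. In 3 of the 9 pairs r was over 0.1, and these values cannot settle whether the numbers pair tumors. Levels of Pars2 rest on 100 to 287 counts per tumor, which limits their precision.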

Other observations

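The 37 genes of the mitochondrial genome are listed with 0 counts in all 20 tumors, so the messages that the mitochondrial synthetases help to translate cannot be set beside them here. This concerns the table and says nothing of their expression.

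Further genes of tRNA charging showed no called change in the other fits. Of the 16 genes, which include the scaffold genes Aimp1, Aimp2 and Eef1e1 and the amidotransferase genes Gatb, Gatc and Qrsl1, edgeR called 0 in the comparison of Lo with Hi (0 also at an unadjusted p under 0.05) and 0 on the ribosomal RNA locus (2 at that level).

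Iars has a processed pseudogene, Gm4849, with 96.0% identity over 1656 bases. It had a median of 26.5 counts, against 4154 counts for Iars.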
